A study of Rattus norvegicus with 3 samples.

Results

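Neurotrophins are secreted growth factors that keep neurons alive and guide the growth of their axons, and the GDNF family of ligands serves neighbouring populations of neurons through a separate set of receptors. The genes described here are 8 members of these systems, taken by symbol from the deposited table: the ligands BDNF, NTF3 and GDNF, the receptor kinases NTRK2 and NTRK3, the receptor NGFR, the sorting receptor SORT1 and the co-receptor GFRA1. Of the 8, 5 have an entry among the 12758 gene symbols of the table, and all 5 are receptors. The 3 ligands BDNF, NTF3 and GDNF have no entry, under their symbol or under a synonym of the rat reference.

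RNA came from female Sprague Dawley rats, 3 months old, all of which had a laminectomy at T9; in the SCI group the exposed cord was then contused with 250 kdyne, and in the No-SCI group it was not. About 2 mm of spinal cord just above the injury was taken 24 h later and digested in the cold with a protease. The cells were then spun down, and total RNA of the supernatant, in which the study sought RNA of severed axons, was sequenced after removal of ribosomal RNA. By label, 1 library is SCI and 2 are No-SCI, whereas the study's methods state 2 animals per condition. Because both groups had the laminectomy, surgery is shared between them and the contusion is what sets them apart by design. The effect of surgery itself cannot be read from this contrast. The table holds 1 authors' value per group and gene in FPKM (fragments mapped to a gene, scaled to its transcript length and to the size of the library) and none for a single library, so neither the depth of a value nor its spread between animals is known, and no SD, interval or test could be given. A difference below is therefore a difference between the 2 group values, described by its fold and by how often genes of the whole table differ as much.

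A neurotrophin is made as a precursor, cut by proteases outside or inside the cell, and bound by a Trk receptor kinase, which passes the signal on through the MAP kinase, PI3 kinase and phospholipase C pathways and can travel along the axon in an endosome. NTRK2 encodes TrkB, the kinase that binds brain-derived neurotrophic factor (BDNF), and NTRK3 encodes TrkC, the kinase that binds the product of NTF3. NGFR encodes the p75 receptor, which binds all neurotrophins and, together with sortilin (SORT1), their precursors. GFRA1 is a membrane-anchored protein that binds GDNF and signals with the kinase RET or with the adhesion molecule NCAM1. In adult cord, astrocytes are known to carry a form of TrkB without the kinase domain. The table has 1 value per symbol, so forms with and without the kinase cannot be told apart in it.

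**Figure D1:**
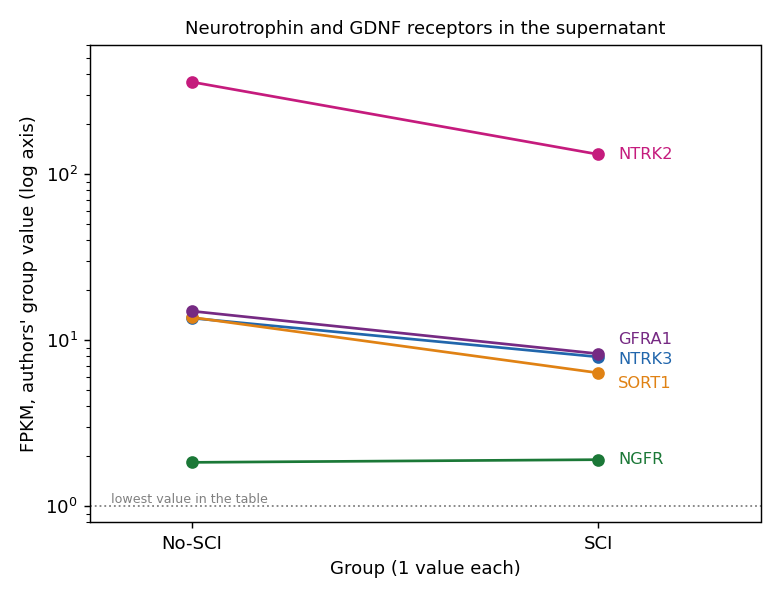
Authors' FPKM values (vertical log axis) of the 5 listed genes in No-SCI and SCI (horizontal axis), each point being 1 group value and each line joining the values of 1 gene; the dotted line marks 1, the lowest value in the table. NTRK2 lies far above the others in both groups, the lines of NTRK2, SORT1, GFRA1 and NTRK3 go down, and NGFR stays near 1.9 FPKM.

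NTRK2 had the highest level of the 5 receptors and also the largest difference between the groups. Its authors' value was 357 FPKM in No-SCI and 131 FPKM in SCI, which is 36.7% of the No-SCI value or a log2 ratio of −1.45. In No-SCI it ranked 558 of all genes by level (percentile 95.6), and in SCI it ranked 1511 (percentile 88.2). Only 4.44% of genes had as low a log2 ratio or a lower one. NTRK3, its relative, was listed at 13.5 FPKM in No-SCI and 7.92 FPKM in SCI, 58.4% of the No-SCI value, a log2 ratio of −0.78. The level of NTRK3 was below the middle of the table in both groups, at percentiles 44.2 and 33.4. The deposited value of NTRK2 was 26.4 times that of NTRK3 in No-SCI and 16.6 times in SCI. All 5 values may be sums over several estimates per gene, so ranks and ratios of levels between genes, here and below, depend on how much was summed.

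The receptors of the precursors differed from each other. SORT1, which sorts neurotrophin precursors inside the cell and joins p75 in binding them at its surface, was listed at 13.7 FPKM in No-SCI and 6.34 FPKM in SCI, 46.3% of the No-SCI value or a log2 ratio of −1.11. NGFR was listed at 1.83 FPKM in No-SCI and 1.90 FPKM in SCI, a log2 ratio of 0.05, and so was nearly level between the groups. Both values of NGFR are close to the lowest value in the table, 1, at percentiles 4.50 and 5.33 by level. Taking the larger value of each entry, the smallest in the table was 1.41, and 2.70% of entries have both below 2, as NGFR has. The value of SORT1 was 7.46 times that of NGFR in No-SCI and 3.33 times in SCI. Whether 1 was added to every value is not given in the sources used here, and with 1 subtracted these ratios were 15.2 and 5.91.

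GFRA1, the co-receptor for GDNF, was listed at 14.9 FPKM in No-SCI and 8.27 FPKM in SCI, 55.4% of the No-SCI value or a log2 ratio of −0.85. By level it was second of the 5 in both groups, at percentiles 46.6 and 34.3. In No-SCI the levels of GFRA1, SORT1 and NTRK3 lay within 1.10 times of each other. The order of these 3 was GFRA1, SORT1, NTRK3 in No-SCI and GFRA1, NTRK3, SORT1 in SCI. With 1 value per group it cannot be said that neighbours in this order differ beyond the spread between animals.

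Promoter sequence is shown for receptors that were lower in SCI, as the stretch from which their RNA starts. RefSeq windows of 300 bases, 250 before the start of the gene and 50 after it, were at hand for 2 of the 5 listed members, SORT1 and GFRA1. Their build is GRCr8, whereas the expression values were made on rn6. The SORT1 window lies at chr2:198612245-198612544 on the plus strand and the GFRA1 window at chr1:267555762-267556061 on the minus strand, and both are printed 5′ to 3′ along the gene, with capitals for the letters GGGCGG, the GC box that factors of the Sp1 family bind, on either strand.
SORT1: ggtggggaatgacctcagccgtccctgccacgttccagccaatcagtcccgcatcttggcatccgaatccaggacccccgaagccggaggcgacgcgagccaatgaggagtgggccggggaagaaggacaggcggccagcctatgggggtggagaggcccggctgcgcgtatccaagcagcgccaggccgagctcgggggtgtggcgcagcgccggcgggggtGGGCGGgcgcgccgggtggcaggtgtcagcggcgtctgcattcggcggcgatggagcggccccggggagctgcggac
GFRA1: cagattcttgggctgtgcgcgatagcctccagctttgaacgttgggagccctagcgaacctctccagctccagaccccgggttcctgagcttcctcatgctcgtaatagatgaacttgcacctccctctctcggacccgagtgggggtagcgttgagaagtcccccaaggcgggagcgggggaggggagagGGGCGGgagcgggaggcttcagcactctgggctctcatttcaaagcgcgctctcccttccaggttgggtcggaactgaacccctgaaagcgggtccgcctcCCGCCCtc
The SORT1 window holds 1 match and the GFRA1 window 2, and 33.1% of the 33469 rat windows of this length hold at least 1. The full cAMP response element, TGACGTCA, is in neither window and in 1.83% of all windows. The windows are rich in G and C, with 72.3% for SORT1 and 63.0% for GFRA1, where the median of all windows is 51.7%. These matches describe the letters in the windows and carry no measurement of binding.

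Taken as a group, 4 of the 5 listed receptors were lower in SCI and 1, NGFR, was slightly higher. NTRK2 and SORT1, 2 of the 5, were at least 2-fold lower, where 12.1% of all genes were, and none was at least 2-fold higher, where 7.93% of all genes were. At a fold of 1.5, GFRA1 and NTRK3 joined them, giving 4 lower and 0 higher, against 26.3% and 16.9% of all genes. At 1.3, the fold minimum the study's methods combine with an adjusted p-value, the counts were again 4 and 0, against 35.7% and 24.6% of all genes. The median log2 ratio of the 5 was −0.85, beside −0.12 for all genes, of which 56.4% were lower in SCI. Relative to that median, a shift of 0.12, the log2 ratios were −1.33 for NTRK2, −0.99 for SORT1, −0.73 for GFRA1, −0.66 for NTRK3 and 0.17 for NGFR, and on this scale NTRK2 was the 1 member at least 2-fold lower. The 5 values summed to 401 FPKM in No-SCI and 156 FPKM in SCI, and NTRK2 made up 89.0% and 84.3% of these sums.

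**Figure D2:**
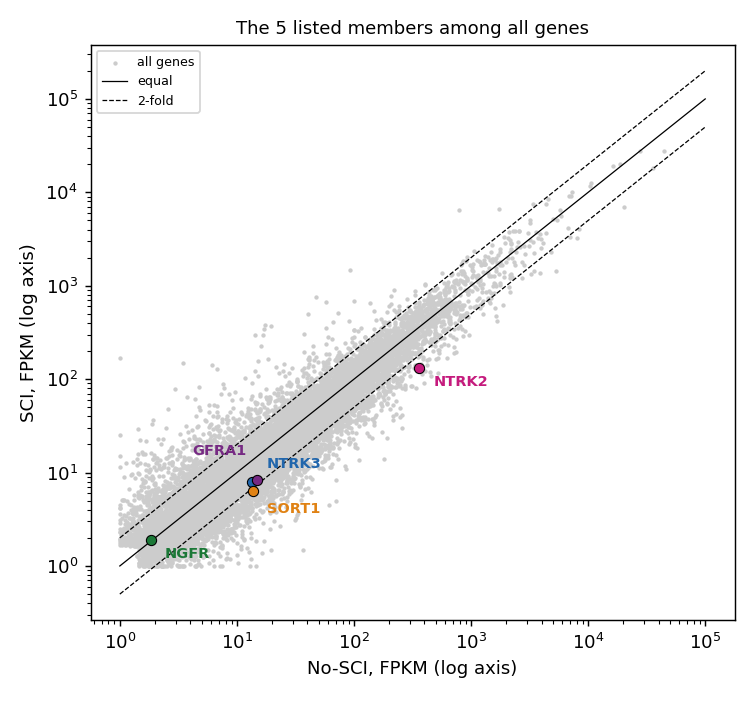
Authors' FPKM in No-SCI (horizontal log axis) against SCI (vertical log axis) for all 12758 genes (grey points), with the 5 listed members in colour; the solid line marks equal values and the dashed lines a 2-fold difference. NTRK2 and SORT1 lie below the lower dashed line, GFRA1 and NTRK3 between it and the solid line, and NGFR on the solid line in the low corner.

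The genes whose pair of values came nearest to those of each receptor were found by distance on the log2 scale in the 2 groups, which uses only 2 points per gene and describes level and ratio alone. Nearest to NTRK2 were TUBB4A, a tubulin with 349 FPKM in No-SCI and 127 FPKM in SCI, and ACYP2 with 358 and 122 FPKM. XPOT and CHD7 were nearest to NTRK3, DPY19L3 and USP32 to SORT1, KLHL25 and ZC3HAV1 to GFRA1, and CIB3 and H2AC1 to NGFR. The distances of these nearest genes ran from 0.0086 for XPOT to 0.11 for ACYP2 on the log2 scale.

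The genes around the 5 receptors were described with 7 lists of 166 genes, of which 137 are in the table. Across them 8 genes (5.84%) were at least 2-fold higher in SCI and 17 (12.4%) at least 2-fold lower, close to the shares of all genes, 7.93% and 12.1%, so these shares lay near the background. The median log2 ratio of the 137 was −0.20. The counts of single lists below are to be set beside the same 7.93% and 12.1% of all genes.

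Among further ligands and receptors of the same families, 10 of 20 are in the table, 2 of them 2-fold higher and 2 lower. NRTN, which encodes neurturin, a ligand of the GDNF family that prefers the co-receptor GFRA2, was listed at 9.65 FPKM in No-SCI and 72.3 FPKM in SCI, a 7.49-fold higher value. Its preferred co-receptor was listed lower: GFRA2 had 8.16 FPKM in No-SCI and 3.72 FPKM in SCI, a log2 ratio of −1.13. The value of GFRA1 was 1.83 times that of GFRA2 in No-SCI and 2.23 times in SCI. RET, the kinase that both co-receptors use, chosen after its values were seen, had 2.43 FPKM in No-SCI and 1.76 FPKM in SCI. NCAM1, the adhesion molecule that can stand in for RET, had 202 FPKM in No-SCI and 82.6 FPKM in SCI, a log2 ratio of −1.29, and its value was 13.6 times that of GFRA1 in No-SCI and 9.99 times in SCI. NRADD, a relative of the p75 receptor with a death domain, had 1.55 FPKM in No-SCI and 5.51 FPKM in SCI, near the lowest value in the table in No-SCI, and with 1 subtracted its values were 0.551 and 4.51. LINGO1, a partner of p75 in the Nogo receptor complex, had 8.27 and 7.45 FPKM. The median log2 ratio of the 10 was −0.21 and their mean 0.12, so the sign depends on the summary.

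**Figure D3:**
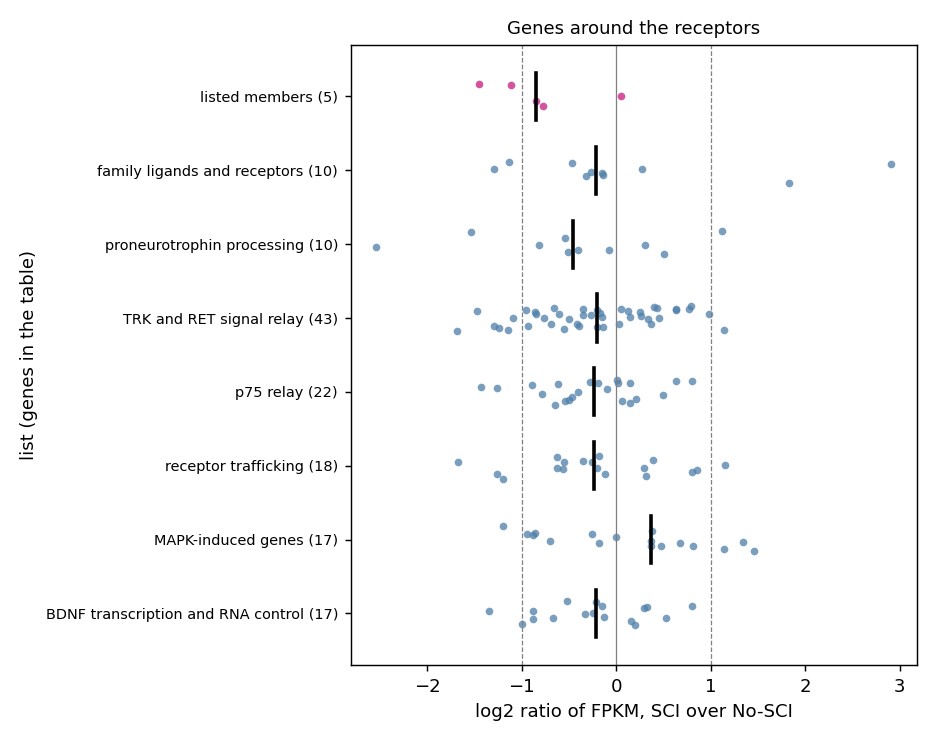
Log2 ratio of authors' FPKM, SCI over No-SCI (horizontal axis), of each gene in the 5 listed members (top, magenta) and in the 7 lists around them (blue), with the number of genes in the table after each name; black bars are medians and dashed lines mark a 2-fold difference. The members' median of −0.85 lies left of the medians of all 7 lists, and NRTN is the point at 2.90.

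Of 16 enzymes and inhibitors that act on neurotrophin precursors, 10 are in the table, 1 of them 2-fold higher and 2 lower, with a median log2 ratio of −0.46. MMP3, a matrix metalloproteinase able to cleave such precursors, had 38.5 FPKM in No-SCI and 6.65 FPKM in SCI, a log2 ratio of −2.53. SERPINI1 (neuroserpin), a neuronal inhibitor of tissue plasminogen activator, had 4.80 and 1.66 FPKM, a log2 ratio of −1.54. PLAT, tissue plasminogen activator itself, had 32.6 and 30.9 FPKM.

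In the relay from Trk receptors and RET to the cell, 43 of 46 genes are in the table, 1 of them 2-fold higher and 6 lower, with a median log2 ratio of −0.21. Of all genes, 7.93% were that much higher and 12.1% that much lower. The 6 are FRS2 (log2 ratio −1.24), GAB1 (−1.47) and CRKL (−1.09), which dock signalling proteins, KIDINS220 (−1.15), a scaffold that binds Trk receptors, PTPN11 (−1.29), the phosphatase SHP2, and RPS6KA5 (−1.68), the kinase MSK1 that phosphorylates CREB. GAB1 had 78.1 FPKM in No-SCI and 28.2 FPKM in SCI, and KIDINS220 had 73.6 and 33.2 FPKM. HRAS, a small GTPase of the MAP kinase pathway, was the 1 higher gene, with 71.6 and 158 FPKM. MAPK3 (ERK1) had 289 FPKM in No-SCI and 170 FPKM in SCI, a log2 ratio of −0.76, and MAP2K2, which activates it, had 164 and 196 FPKM.

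Of 24 genes that act with or below p75, 22 are in the table, 0 of them 2-fold higher and 2 lower. These were MAPK10 (JNK3), the neuronal JNK kinase, with 44.0 FPKM in No-SCI and 16.3 FPKM in SCI, and NDN (necdin), which binds the cytoplasmic part of p75, with 41.3 and 17.3 FPKM. BEX3, a small protein that binds the death domain of p75, had 1016 and 1574 FPKM, and RHOA, the GTPase that p75 can activate, 744 and 651 FPKM. ARHGDIA, which holds RHOA inactive, had 1744 and 1324 FPKM.

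For the genes that sort and carry the receptors, 18 of 20 are in the table, with 1 at least 2-fold higher and 3 lower. HAP1, which links cargo to axonal motors, had 31.9 FPKM in No-SCI and 10.01 FPKM in SCI, a log2 ratio of −1.67. DPYSL2 (CRMP2), which is part of the complex that carries TrkB to axon ends, had 15.1 and 6.61 FPKM, a log2 ratio of −1.19, and USP8, an endosomal deubiquitinase, had 65.5 and 27.3 FPKM. SYTL1, another part of the TrkB carrier, was higher with 1.58 and 3.49 FPKM, near the lowest value in the table. The most abundant were RAB7A, a GTPase of late endosomes (341 and 221 FPKM), GIPC1, an adaptor of Trk receptors (315 and 393 FPKM), and DYNLT1, a dynein light chain (188 and 328 FPKM).

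Genes that MAP kinase signalling is known to induce formed the 1 list of the 7 with a median above 0, with 9 genes higher and 8 lower. Of 20, 17 are in the table, 3 of them 2-fold higher and 1 lower, and their median log2 ratio was 0.37 and their mean 0.12. EGR1 had 10.3 FPKM in No-SCI and 28.1 FPKM in SCI (log2 ratio 1.46), JUNB 28.4 and 71.9 FPKM (1.34), and FOS 43.8 and 96.8 FPKM (1.14). ARC, a synaptic gene that BDNF induces in neurons, was lower, with 5.26 and 2.29 FPKM (log2 ratio −1.20). ETV4, a transcription factor downstream of RET and Trk receptors, had 68.9 and 37.9 FPKM, a log2 ratio of −0.86.

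Among 20 genes that act on BDNF transcription or its RNA, 17 are in the table, 0 of them 2-fold higher and 1 lower. ELAVL4 (HuD), a neuronal protein that binds and stabilizes RNA of growth genes, had 8.39 FPKM in No-SCI and 3.31 FPKM in SCI, a log2 ratio of −1.34. HNRNPK had 1422 and 1282 FPKM, USF1 110 and 126 FPKM, and ELAVL1 (HuR) 80.2 and 116 FPKM.

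Markers of several cell types differed between the groups beside the receptors. The RNA is of a supernatant from which cells were spun down, so marker levels do not count cells. Fewer cells of a type, less RNA per cell and less RNA passing into the supernatant cannot be told apart. Of 17 astrocyte markers, 14 are in the table and 12 of these were lower in SCI, 8 of them at least 2-fold, with a median log2 ratio of −1.06 and a summed level of 25391 FPKM in No-SCI and 21254 FPKM in SCI. Of the 3 most abundant, NDRG2 had 8001 FPKM in No-SCI and 3228 FPKM in SCI, APOE 10448 and 11804 FPKM, and GLUL 5858 and 5624 FPKM. GFAP, AQP4 and SLC1A3 have no entry. For oligodendrocytes 13 of 14 markers in the table were lower, 9 of them at least 2-fold, with a median log2 ratio of −1.63 and sums of 52782 and 30366 FPKM, and MBP has no entry. MOBP, with 44200 and 27648 FPKM, made up most of both sums, and CNP had 1887 and 615 FPKM. Of 12 precursor markers 9 were lower, with a median of −0.96 and sums of 408 and 205 FPKM. Neuronal markers, 17 of 20 in the table, were lower in 14 cases, with a median of −0.60 and sums of 4128 and 2698 FPKM, with MAP2 at 2140 and 860 FPKM, THY1 at 297 and 136 FPKM and GAP43 at 1275 and 1406 FPKM. The log2 ratios of NTRK2, −1.45, and SORT1, −1.11, thus lay between the medians of the astrocyte and oligodendrocyte lists. Those of NTRK3 and GFRA1, −0.78 and −0.85, lay between the medians of the neuronal and precursor lists. These places depend on the setting. With a pseudocount of 1, SORT1 (−1.0004) lay above the astrocyte median of −1.04 and GFRA1 (−0.780) below the precursor median of −0.768. With list means, NTRK2 lay below the oligodendrocyte value of −1.38. The part of these cell types in the receptors' values was not tested.

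**Figure D4:**
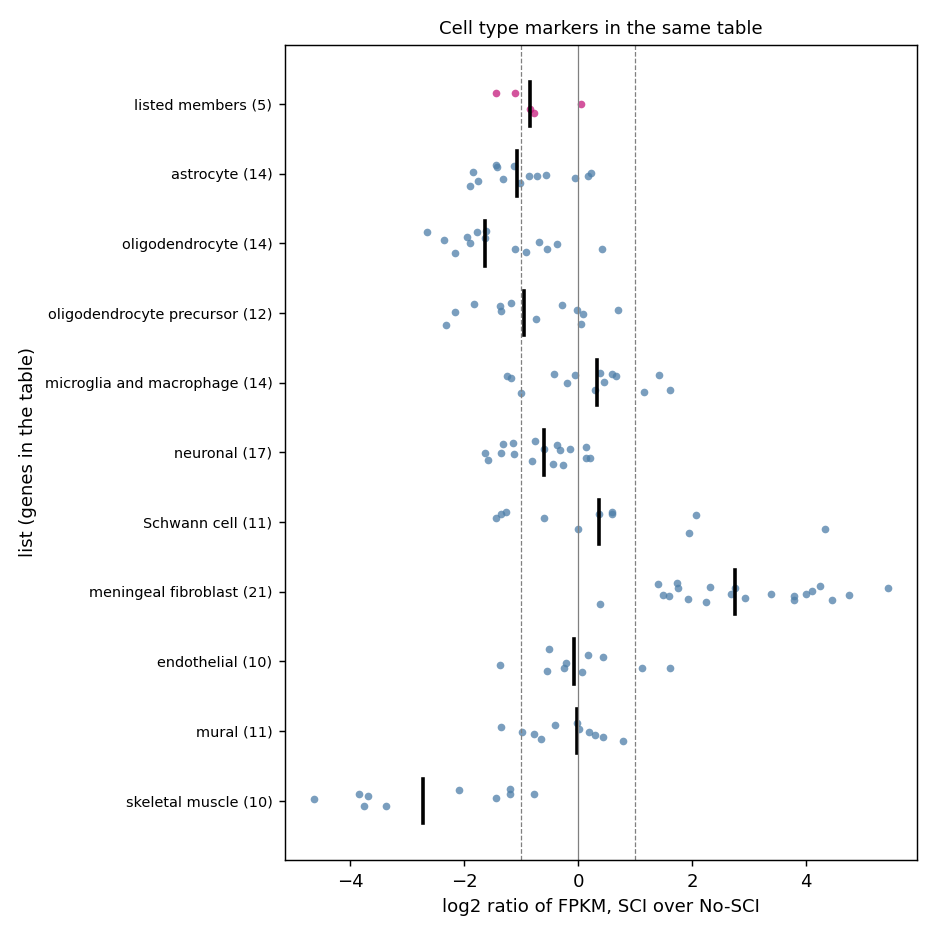
Log2 ratio of authors' FPKM, SCI over No-SCI (horizontal axis), of each gene in the 5 listed members (top, magenta) and in 10 lists of cell type markers (blue), with the number of genes in the table after each name; black bars are medians and dashed lines mark a 2-fold difference. The medians of the astrocyte, oligodendrocyte, precursor, neuronal and skeletal muscle lists lie left of −0.5, and that of the meningeal fibroblast list lies at 2.75.

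The remaining lists differed in direction. All 21 meningeal fibroblast markers in the table were higher in SCI, 20 of them at least 2-fold, with a median log2 ratio of 2.75 and sums of 226 and 2298 FPKM. The Schwann cell list is of interest because Schwann cells are a known site of NGFR. Of its 15 markers 11 are in the table, with sums of 186 and 220 FPKM and a median of 0.37, and CDH19 and S100B have no entry. PMP22 had 56.6 FPKM in No-SCI and 85.9 FPKM in SCI, PMP2 63.9 and 63.8 FPKM, and SOX10, which is also among the precursor markers, 29.5 and 11.6 FPKM. Microglia and macrophage markers were split, 8 of 14 higher and 6 lower (median 0.34, sums of 1464 and 2061 FPKM), as were endothelial markers (median −0.07, sums of 70.7 and 96.7 FPKM) and mural markers (median −0.03, sums of 490 and 591 FPKM), whose medians turned positive when all genes were centred. All 10 skeletal muscle markers in the table were lower in SCI, 9 of them at least 2-fold, with a median of −2.73 and sums of 433 and 47.0 FPKM. MYH1 and MYH2, both counted there, have the same values, 2.71 and 1.18 FPKM, and may be 1 estimate under 2 symbols. The part of these remaining lists in the receptors' values was not tested.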

How the data were processed

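Sequencing reads of 2 No-SCI libraries and 1 SCI library, as labelled, were downsampled to the smallest library, aligned by the authors to rn6 with STAR 2.5.4b and the Ensembl annotation, and summarised with Cuffdiff 1.3.0 with upper quartile normalization. Each entry of the deposited table gives 2 FPKM values made by the authors, 1 for No-SCI and 1 for SCI. The authors' own comparison (fold change, log2 fold change, p-value, q-value and significance flag) is also in the table and was not used. No value is below 1, and 58.6% of symbols have values of 7 digits, 1 more than a single Cuffdiff estimate, as have all 5 members in the table. For NGFR, adding 1 to an estimate of 6 digits would also give 7 digits, as its values less 1 are 0.834393 and 0.904432. Whether its values are sums or had 1 added was not tested. Where a value of 7 digits is a sum, levels between genes depend on how much was summed.

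The table has 12771 entries and 12758 symbols, and for the 13 listed more than once the entry with the larger mean was kept. Log2 ratios of SCI over No-SCI were computed without a pseudocount, and a fold of 2 was counted by direction. No test across samples was possible with 1 value per group. The genes named are all members, list genes at 2-fold or more, the 3 most abundant of each list and the 2 genes nearest to each member; of the marker lists, the most abundant genes are printed for the astrocyte, oligodendrocyte, neuronal and Schwann cell lists alone, and RET and the promoter motifs were chosen after values were seen. Members and lists were chosen with earlier results of these data known. Some genes of the family and of the lists are not reported here. Alternatives were pseudocounts of 1 and 0.1, median centring, equal upper quartiles, equal totals, subtraction of 1, folds of 1.5 and 1.3, a mean of at least 5 FPKM, the other entry of repeated symbols and list means. The code for the fold counts was run on simulated data with known large changes and little noise. That run checks the counting alone and says nothing about the spread between animals. All 8 members matched a symbol of the GRCr8 RefSeq table, used for names and promoter windows. Python 3.11.15, numpy 2.4.6, pandas 2.3.3 and matplotlib 3.10.9 were used.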

Additional observations from a re-analysis of the deposited data

How the results depend on the processing

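With 1 value per group, no replicate could be left out and no spread is known against which a shift could be judged, so the shifted values of the members are given 1 by 1 and those of the lists as ranges. The log2 ratios of NTRK2, SORT1, GFRA1 and NTRK3 stayed below 0 and that of NGFR above 0 under every setting tried. With a pseudocount of 1 they were −1.44, −1.0004, −0.78, −0.71 and 0.035 in this order. A pseudocount of 0.1 gave −1.10 for SORT1, −0.84 for GFRA1 and −0.77 for NTRK3. Median centring gave −1.33, −0.99, −0.73, −0.66 and 0.17, and took 1 member from the 2-fold count, which left 1 lower. Equal upper quartiles gave −1.34, −1.01, −0.75, −0.67 and 0.16, and equal totals −1.40, −1.06, −0.81, −0.73 and 0.10. Subtracting 1 from both values gave −1.25 for SORT1, −0.94 for GFRA1, −0.86 for NTRK3 and 0.12 for NGFR. Folds of 1.5 and 1.3 each counted 4 members lower. Of the pathway genes, 20 (14.6%) were higher and 40 (29.2%) lower at 1.5, beside 16.9% and 26.3% of all genes, and 29 (21.2%) were higher and 55 (40.1%) lower at 1.3, beside 24.6% and 35.7%. With 1 subtracted, 10 pathway genes were at least 2-fold higher and 24 lower, where the main setting had 8 and 17. The shares of all genes were not computed with 1 subtracted. These settings moved the median of all genes by up to 0.12. Over these settings and the mean in place of the median, the summary log2 ratio ran from −0.49 to 0.12 for the family list, −0.59 to −0.31 for precursor processing, −0.29 to −0.09 for the Trk and RET relay, −0.25 to −0.12 for the p75 relay, −0.23 to −0.11 for trafficking, 0.12 to 0.49 for MAP kinase-induced genes and −0.24 to −0.09 for BDNF control. For markers it ran from −1.09 to −0.95 (astrocyte), −1.63 to −1.38 (oligodendrocyte), −1.11 to −0.77 (precursor), 0.18 to 0.46 (microglia and macrophage), −0.85 to −0.43 (neuronal), 0.24 to 0.49 (Schwann cell), 2.22 to 3.88 (meningeal fibroblast), −0.07 to 0.05 (endothelial), −0.22 to 0.09 (mural) and −3.51 to −2.38 (skeletal muscle). Subtraction of 1 from levels set between genes, chosen after seeing the data, moved those with NGFR or RET by over 1.5 times, to 427 and 144 for NTRK2 over NGFR in No-SCI and SCI. Depth and the spread between animals limit every statement and are unknown.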
